A study of Mus musculus with 47 samples.

Results

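The cholinergic and motor neuron genes are 10 genes that mark neurons which make acetylcholine, above all the motor neurons of the medulla, together with the receptors that these neurons and their targets carry. They are *Chat*, *Slc18a3*, *Slc5a7*, *Ache*, *Isl1*, *Prph*, *Calca*, *Chrna4*, *Chrnb2* and *Chrm2*, and their rows were found by symbol in both tables. All 10 were listed in both count tables, among 33139 genes in brainstem and 31751 in hippocampus. Of the 10, 9 reached a mean count of 50 and entered the test in brainstem, all except *Isl1*, and 4 did so in hippocampus (*Ache*, *Chrna4*, *Chrnb2* and *Chrm2*).

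Acetylcholine is made from choline and acetyl coenzyme A by choline acetyltransferase, packed into vesicles by the vesicular acetylcholine transporter and split after release by acetylcholinesterase, and the freed choline is taken up again by a high-affinity choline transporter. In the medulla it is the transmitter of the cranial motor nuclei and of the parasympathetic neurons of the vagus nerve, and local motor neurons have their cell bodies there. The hippocampus holds few cell bodies that make acetylcholine and receives its cholinergic axons from the basal forebrain, so that the transcripts of the synthetic machinery lie in other tissue while receptor transcripts are made locally.

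RNA was sequenced from 47 libraries of male mice of C57BL/6 background aged 12 months, 23 of brainstem and 24 of hippocampus. Transgenic mice (TG) were homozygous for a transgene that the Thy1 promoter drives in neurons of the central nervous system, and wild-type mice (WT) came from a parallel colony started from the same outcross, so colony and transgene cannot be told apart. Mice of both genotypes ate a standard diet (SD) or a high-fat diet (HFD) from 5 weeks of age, which gave WT SD, WT HFD, TG SD and TG HFD groups with 6 libraries per region, except 5 of brainstem for WT SD. The brainstem dissection was the medulla, and the hippocampus was taken with all subfields. The labels do not tie the libraries of both regions to single mice.

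Library totals ranged from 10020784 to 15078812 counts in brainstem and from 11945971 to 17328447 in hippocampus, and values are given below as CPM, counts scaled to library size with TMM factors. The medulla marker *Slc6a5*, the glycine transporter of inhibitory neurons, had 250.2 to 469.7 CPM in brainstem and at most 0.501 CPM in hippocampus. *Lhx8*, a factor of basal forebrain cholinergic neurons, was near 0 in both regions (means of 0.00954 CPM in brainstem and 0.00949 in hippocampus). Markers of sensory ganglia and of skeletal muscle, which also hold several of these genes, were low, with summed levels of 2.05 to 7.25 and 1.82 to 14.3 CPM in brainstem and 0.0342 CPM of *Scn10a*, the sodium channel that defines nociceptors. In bulk tissue, fewer cells of a type and less RNA per cell cannot be told apart.

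*Chat* and *Slc18a3* form a single locus: *Slc18a3* lies inside the span of *Chat*, on the same strand, with 0 shared exon bases in the annotation. The start-site windows of both and of *Slc5a7* are shown. Of the 9 members tested between the regions, these had the lowest levels in hippocampus. *Isl1*, with 6 reads in hippocampus, was also near 0 there but was too low for that test. Each window holds 300 bases, 250 before and 50 after the annotated start, from RefSeq on GRCm38.p6, and all 10 genes had a window. Capitals mark CAGCTG, a motif of E-box type, and TATAAA, the letters of the TATA box, both read on both strands. Matches at any position in the window were counted, so a marked TATAAA need not be a TATA box. The window of *Chat* is at chr14:32465860-32466159, that of *Slc18a3* at chr14:32464801-32465100 and that of *Slc5a7* at chr17:54298985-54299284, all on the minus strand.
Chat: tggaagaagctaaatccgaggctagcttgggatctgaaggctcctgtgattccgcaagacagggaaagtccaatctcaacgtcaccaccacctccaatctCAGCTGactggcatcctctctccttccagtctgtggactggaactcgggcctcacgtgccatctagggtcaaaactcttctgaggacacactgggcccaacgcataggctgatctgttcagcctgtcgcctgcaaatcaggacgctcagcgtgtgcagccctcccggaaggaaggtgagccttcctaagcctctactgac
Slc18a3: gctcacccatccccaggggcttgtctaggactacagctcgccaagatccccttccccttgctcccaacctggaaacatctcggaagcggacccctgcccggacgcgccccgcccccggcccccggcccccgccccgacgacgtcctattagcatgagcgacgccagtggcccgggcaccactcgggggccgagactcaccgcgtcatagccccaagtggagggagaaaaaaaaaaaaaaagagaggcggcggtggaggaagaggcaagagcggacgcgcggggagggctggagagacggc
Slc5a7: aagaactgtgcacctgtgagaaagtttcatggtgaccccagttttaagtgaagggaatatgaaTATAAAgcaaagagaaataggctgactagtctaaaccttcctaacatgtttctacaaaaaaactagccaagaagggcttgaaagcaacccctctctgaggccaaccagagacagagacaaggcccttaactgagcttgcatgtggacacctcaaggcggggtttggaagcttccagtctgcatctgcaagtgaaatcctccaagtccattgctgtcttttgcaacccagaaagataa
The window of *Chat* had a GC content of 55.67%, that of *Slc18a3* 67% and that of *Slc5a7* 44.67%, around a median of 52.67% over 32851 promoters. CAGCTG was found in 3 of the 10 windows (*Chat*, *Isl1* and *Calca*), against 16.3% of all promoters, and TATAAA in 2 (*Prph* and *Slc5a7*), against 13.62%. CAGCACC, a core of the repressor element RE1, was in 0 of 10 (7.141% of all), and TAATTA, a homeodomain core, in 0 of 10 (5.291% of all). These letters describe the windows only.

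Per length of transcript, acetylcholinesterase was the most abundant of the 10 in brainstem. *Ache* had 30.6 ± 4.81 RPKM (CPM per kilobase of exon, SD over 23 libraries), above *Slc5a7* in 23 of 23 libraries without overlap of their ranges. *Slc5a7*, the choline transporter, had 15.9 ± 2.28 RPKM and *Prph*, the intermediate filament peripherin of neurons with peripheral axons, 14.9 ± 2.88 RPKM. These neighbours were not separated, with *Slc5a7* the higher in 15 of 23 libraries. *Calca*, which encodes calcitonin and the peptide CGRP of motor neurons, followed at 10.99 ± 1.78 RPKM, and *Chrm2*, the M2 muscarinic receptor, at 9.73 ± 1.12 RPKM. *Calca* was above *Chrm2* in 16 of 23 libraries and *Chrm2* above *Chrna4* in 21. The nicotinic subunits *Chrna4* and *Chrnb2*, which together form the main high-affinity nicotinic receptor of the brain, had 7.75 ± 1.05 and 6.17 ± 0.624 RPKM. *Slc18a3*, the vesicular transporter, had 5.72 ± 1.16 RPKM and *Chat*, the synthetic enzyme, 3.85 ± 0.693 RPKM, with *Slc18a3* the higher in 22 of 23 libraries. *Isl1*, a homeodomain factor of motor neurons, was lowest at 0.600 ± 0.180 RPKM, below *Chat* in 23 of 23 libraries.

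**Figure D1:**
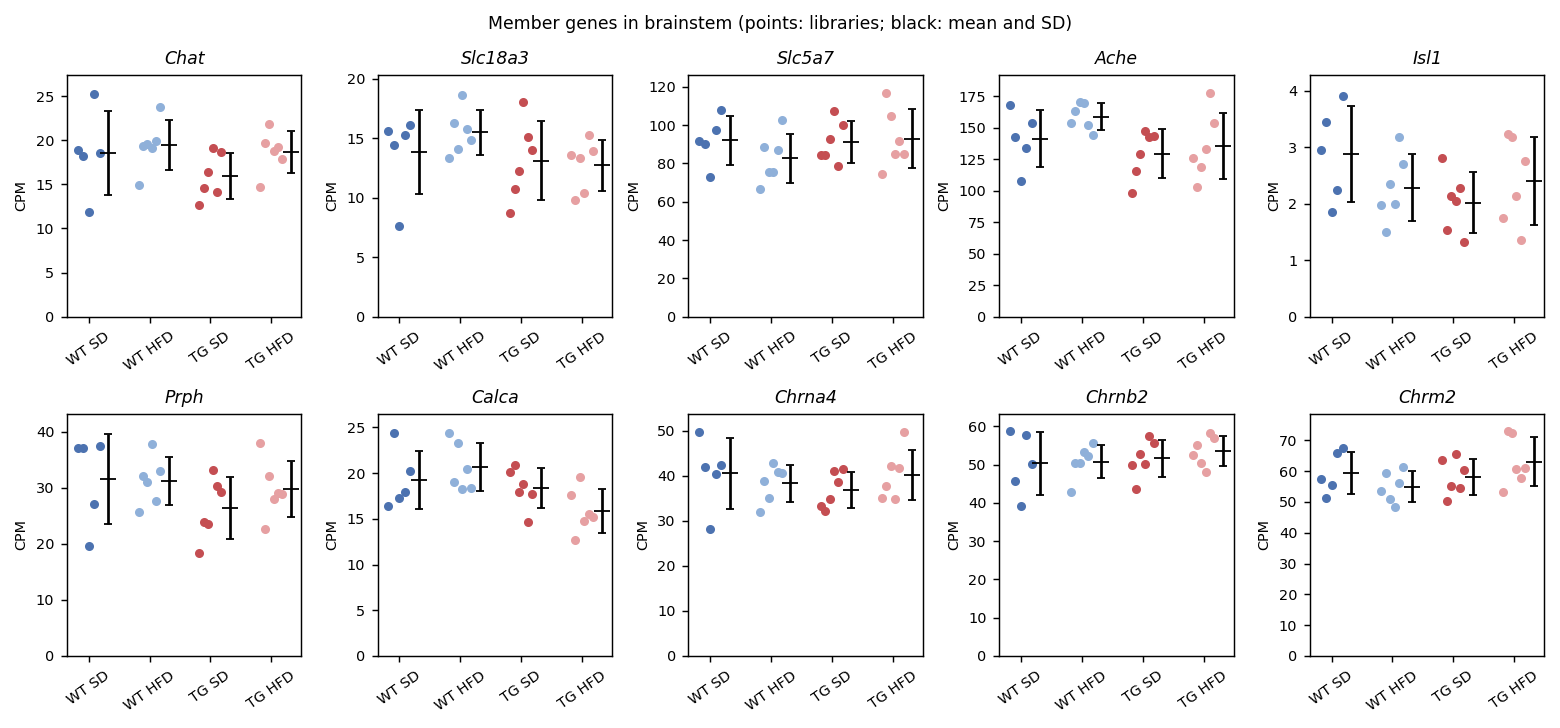
CPM of each of the 10 genes (one panel each, y axis from 0) in the 23 brainstem libraries by group, with the mean and SD of each group in black. All groups overlap in every panel, and 1 WT SD library (replicate 6) is the lowest of its group for Chat, Slc18a3, Ache, Isl1, Prph, Chrna4, Chrnb2 and Slc5a7.

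The receptor transcripts and *Ache* were detected in hippocampus, with *Ache*, *Chrna4* and *Chrm2* lower than in brainstem. *Chat*, *Slc18a3* and *Isl1* were at or near 0 there. *Chat* had 14 reads over all 24 hippocampus libraries and was at 0 in 15 of them, against 5273 reads in 23 brainstem libraries. The ratio of depth-scaled reads was 453 for brainstem over hippocampus (95% exact interval 269.8 to 829.4, counting error only). *Slc18a3* had 8 reads against 3969, a ratio of 597 (303 to 1384), and *Isl1* 6 against 691, a ratio of 139 (63.3 to 379). Whether single cells of hippocampus make these transcripts was not tested.

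*Slc5a7* had 215 reads in hippocampus, with 0.203 to 1.09 CPM per library in a scaling over both regions, against 65.97 to 114.9 CPM in brainstem, so the regions did not overlap. *Prph* and *Calca* were likewise low but detected in every hippocampus library, with 3 to 15 and 6 to 20 counts. In the order by RPKM, *Ache* (8.07 ± 1.07) and *Chrnb2* (7.08 ± 0.498) led in hippocampus and overlapped, with *Ache* the higher in 19 of 24 libraries. *Chrna4* (2.86 ± 0.375 RPKM) and *Chrm2* (1.14 ± 0.186 RPKM) followed without overlap between them. Below these came *Calca* at 0.508 ± 0.161 RPKM, *Prph* at 0.334 ± 0.125 and *Slc5a7* at 0.108 ± 0.0459, and then *Slc18a3*, *Chat* and *Isl1*, whose order cannot be read from so few reads.

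To ask which members differed between the regions, all 47 libraries were fitted together over 13458 genes, of which 60.2% were called (absolute log2 fold change of at least 0.3 and edgeR adjusted p of at most 0.05), with 31.0% lower and 29.2% higher in hippocampus. The libraries were treated as independent, although those of both regions may come from the same mice. The filter on mean counts ran over both regions, and of the 9 members tested only *Ache*, *Chrna4*, *Chrnb2* and *Chrm2* reached 50 counts in each. The other 5 (*Chat*, *Slc18a3*, *Slc5a7*, *Prph* and *Calca*), with means of 0.333 to 12.4 counts in hippocampus, entered through their brainstem counts and so had to be lower in hippocampus; their values are descriptions. Of the 4 others, 3 were lower in hippocampus and called. On the log2 scale *Slc18a3* differed by −8.75 (SE 0.177), *Chat* by −8.53 (SE 0.162) and *Slc5a7* by −7.14 (SE 0.0897). The motor neuron genes *Prph* and *Calca* fell by 5.42 (SE 0.109) and 4.39 (SE 0.0822) on the log2 scale. *Chrm2* was lower by a log2 fold change of −3.06 (SE 0.0568), *Ache* of −1.89 (SE 0.0516) and *Chrna4* of −1.40 (SE 0.0535). *Chrnb2* alone of the 9 had a higher mean in hippocampus, by a log2 difference of 0.24 (SE 0.0382, edgeR adjusted p = 1.56e-07) that stayed under the fold threshold. Its exons share 1365 of 8380 bases (16.3%) with *Adar* on the opposite strand, and without strand in the reads its level is uncertain by reads of *Adar*.

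**Figure D2:**
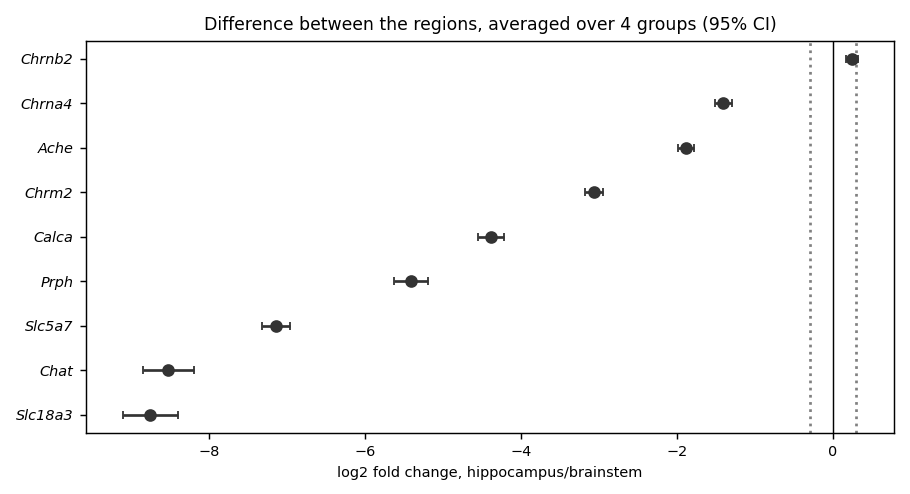
Log2 fold change of hippocampus over brainstem, averaged over the 4 groups, for the 9 members tested, with 95% confidence intervals and dotted lines at 0.3 to either side of 0. Values run from -8.75 for Slc18a3 to 0.24 for Chrnb2, the sole value above 0.

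Of the 4 members that reached 50 counts in both regions, *Ache*, *Chrna4* and *Chrm2* were lower in hippocampus without overlap of the CPM ranges. The ranges of *Chrnb2* overlapped, with 38.8 to 58.0 CPM in brainstem and 50.7 to 67.9 in hippocampus. The other members did not overlap either, which is a description only, as their hippocampus counts were too low for the test there. Of all tested genes, 17.3% were lower in hippocampus without overlap. In WT SD alone, 59.5% of genes were called, and of the 4 members that reached 50 counts in both regions *Ache* (−1.80), *Chrna4* (−1.60) and *Chrm2* (−3.09) were called lower in hippocampus and *Chrnb2* was not called (log2 fold change 0.25, SE 0.0793). There *Chat* rested on 3 hippocampus reads, all in replicate 7, and 1218 brainstem reads, a ratio of 528 (95% exact interval 180 to 2563). Without that library the fitted log2 fold change of *Chat* in WT SD moved from −8.68 to −10.95. *Isl1*, too low for the test, had a log2 fold change of −6.72 (SE 0.264) where edgeR's filterByExpr took the place of the filter on mean counts. It passed that filter through its brainstem counts, so this value too is a description.

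The rest of the cholinergic pathway is given by lists of genes, most of them beyond the 10. For the counts below, the background over all genes tested between the regions was 31.0% called lower and 29.2% called higher in hippocampus. Of the 8 genes of acetylcholine synthesis, packaging, uptake and breakdown, 6 were tested between the regions, and 4 of these (*Chat*, *Slc18a3*, *Slc5a7* and *Slc10a4*) entered through their brainstem counts alone. *Slc10a4*, a vesicle protein of cholinergic and monoamine neurons, had a log2 fold change of −5.24 (SE 0.0951), with a mean of 6.04 counts in hippocampus. *Bche*, butyrylcholinesterase, which reached 50 counts in both regions as *Ache* did, was lower in hippocampus (−1.54, SE 0.0664). Of 5 muscarinic receptors 4 were tested, and *Chrm1* (log2 fold change 7.10, SE 0.0542), *Chrm4* (3.49) and *Chrm3* (2.07) were higher in hippocampus where *Chrm2* was lower. *Chrm1* and *Chrm4* entered through their hippocampus counts alone, *Chrm1* with a mean of 224.8 CPM there and 1.70 in brainstem. Of 16 nicotinic subunits 3 were tested, with *Chrna7*, the subunit of the homomeric receptor, higher in hippocampus (1.43, SE 0.0587), *Chrna4* lower and *Chrnb2* under the fold threshold. Of 7 chaperones and modulators of nicotinic receptors, 3 were higher, with *Ly6h* at 2.13, and 2 lower, with *Lypd6b* at −2.15. Of 16 motor neuron genes 7 were tested, and 5 of them (*Prph*, *Calca*, *Ret*, *Chodl* and *Ecel1*) entered through their brainstem counts alone, with *Chodl*, a marker of fast motor neurons, at −6.79. Of the other 2, *Esrrg* was lower in hippocampus (−2.48, SE 0.0667) and *Gfra1*, a GDNF coreceptor, was higher (0.55, SE 0.0325).

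Within brainstem, 0 of 9 members passed the threshold in any of the 7 comparisons of genotype and diet. Over all 13340 tested genes, the share called was 0.142% for TG SD/WT SD, 0.0525% for TG HFD/WT HFD, 0.09% for TG/WT averaged over diets and 0.0075% for HFD/SD averaged over genotypes, so 0 of 9 members lies near the background. At an unadjusted p of at most 0.05, edgeR returned 2 of 9 members for TG/WT averaged over diets (9.99% of all genes), and DESeq2 likewise called 0. The members had a median log2 fold change of −0.04 for TG/WT, and 7 of 9 were below 0.

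*Chat* varied about as much within groups as between them in brainstem. Its WT SD libraries had 18.9, 18.2, 11.9, 25.2 and 18.6 CPM. WT HFD libraries ran from 14.9 over a median of 19.4 to 23.8 CPM, TG SD from 12.6 over 15.5 to 19.1, and TG HFD from 14.6 over 19.0 to 21.8. All 4 groups overlapped, and both the lowest and the highest library were of WT SD. Averaged over diets, TG/WT was −0.21 on the log2 scale (SE 0.0810, unadjusted p = 0.0153, edgeR adjusted p = 0.355). The values of *Chat* moved with the surrogate variables, covariates estimated from the counts, of which 4 were in the model. For TG HFD/WT HFD the log2 fold change was −0.30 (SE 0.123, edgeR adjusted p = 0.826) with them and −0.06 (SE 0.135) with 0 of them.

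*Calca* was the member with the lowest mean in TG HFD relative to WT HFD. It had 16.4, 24.3, 17.3, 17.95 and 20.3 CPM in WT SD, 18.2 to 24.4 in WT HFD with a median of 19.8, 14.7 to 20.9 in TG SD with a median of 18.4, and 12.7 to 19.6 in TG HFD with a median of 15.4. A single TG HFD library, replicate 4 at 19.6 CPM, lay above the lowest WT HFD library. The log2 fold change of TG HFD/WT HFD was −0.32 (SE 0.125, unadjusted p = 0.0165, edgeR adjusted p = 0.819), and −0.38 (SE 0.110, edgeR adjusted p = 0.132) without surrogate variables. Averaged over diets it was −0.19 (SE 0.0807, edgeR adjusted p = 0.409).

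*Slc18a3* had 15.6, 14.5, 7.60, 15.3 and 16.1 CPM in WT SD, 13.4 to 18.7 in WT HFD (median 15.3), 8.67 to 18.1 in TG SD (median 13.1) and 9.78 to 15.3 in TG HFD (median 13.5). The groups overlapped, and the low WT SD library was replicate 6. HFD against SD in TG gave a log2 fold change of −0.25 (SE 0.0977, unadjusted p = 0.0153, edgeR adjusted p = 0.587), and the interaction of genotype and diet gave −0.34 (SE 0.148, unadjusted p = 0.0279, edgeR adjusted p = 0.993). Without surrogate variables these were −0.04 (SE 0.165) and −0.21 (SE 0.235), and without TG SD replicate 6 the first was −0.15. *Slc5a7*, with group means of 92.0 ± 12.7 CPM in WT SD (n = 5), 82.7 ± 12.6 in WT HFD, 91.3 ± 11.02 in TG SD and 92.9 ± 15.4 in TG HFD (n = 6 each), had −0.15 (SE 0.0657, edgeR adjusted p = 0.664) for HFD/SD in TG, which turned to 0.03 (SE 0.109) without surrogate variables and was −0.10 without TG SD replicate 6.

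The other members of brainstem had no comparison with an unadjusted p of at most 0.05. *Ache* had 141 ± 22.6 CPM in WT SD (n = 5), 159 ± 10.5 in WT HFD, 129.6 ± 19.5 in TG SD and 136 ± 26.5 in TG HFD (n = 6 each). Its TG/WT log2 fold change was 0.00 (95% interval −0.06 to 0.06), and −0.18 (SE 0.0819, edgeR adjusted p = 0.262) with 0 surrogate variables. *Prph* ranged from 18.3 to 38.0 CPM with a TG/WT log2 fold change of −0.04 (−0.21 to 0.13). The receptor genes were the steadiest: *Chrnb2* had a coefficient of variation of 10.1% over the 23 libraries, *Chrm2* of 11.5% and *Chrna4* of 13.5%. Their TG/WT log2 fold changes were 0.06 (−0.02 to 0.15), −0.04 (−0.14 to 0.05) and −0.00 (−0.09 to 0.08), intervals that lie within 0.3 to either side. For the diets, the intervals of HFD/SD averaged over genotypes likewise lay within 0.3 for all 9 members, with the bound farthest from 0 at 0.27 for *Chat*.

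*Isl1* was too low for the test, with 1.33 to 3.91 CPM over all brainstem libraries and group means of 2.88 ± 0.848 in WT SD (n = 5), 2.28 ± 0.597 in WT HFD, 2.02 ± 0.534 in TG SD and 2.40 ± 0.778 in TG HFD (n = 6 each). The groups overlapped. With filterByExpr as the filter, TG/WT averaged over diets gave a log2 fold change of −0.51 (SE 0.178, unadjusted p = 0.00727, edgeR adjusted p = 0.335). In the same fit TG HFD/WT HFD was −0.50 (SE 0.274), although the mean CPM was higher in TG HFD than in WT HFD. That fit held surrogate variables, and *Isl1* was not fitted without them.

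**Figure D3:**
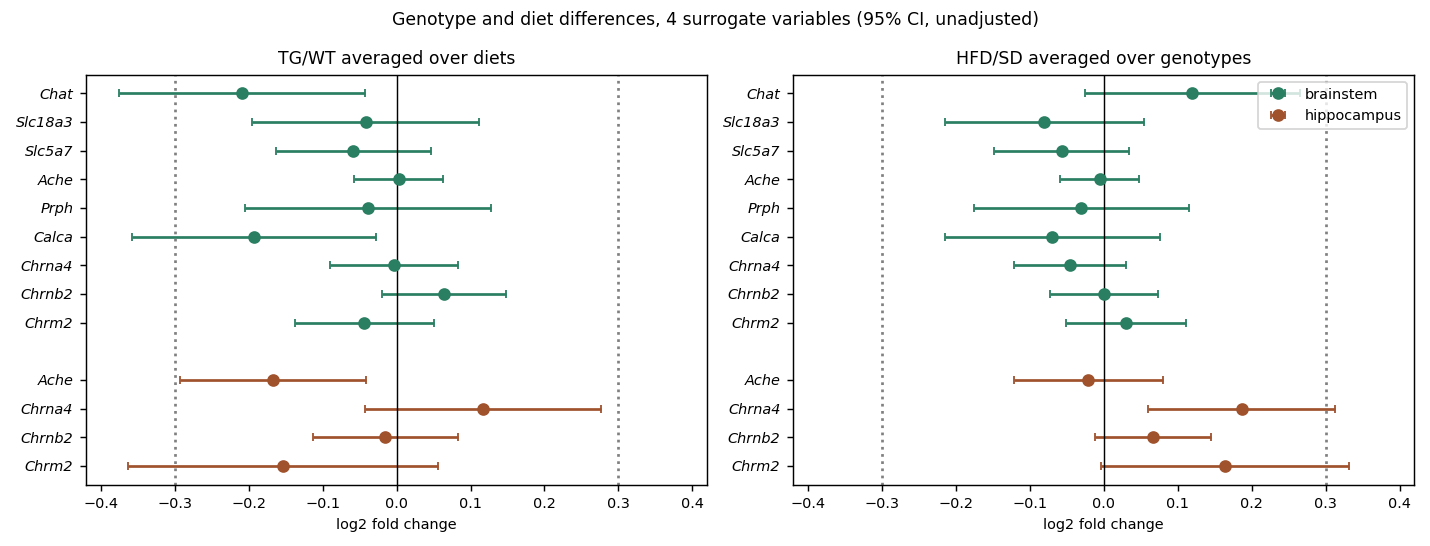
Log2 fold changes of TG/WT averaged over diets (left) and HFD/SD averaged over genotypes (right) with unadjusted 95% intervals for the members tested in brainstem (green) and hippocampus (brown), dotted lines at 0.3 to either side. The points with intervals clear of 0 are Chat and Calca in brainstem and Ache in hippocampus for genotype, and Chrna4 in hippocampus for diet, and none of them passed adjustment.

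In hippocampus *Ache* was the member whose libraries did not overlap between the genotypes on HFD. WT SD libraries had 36.8 to 41.0 CPM with a median of 39.7, and WT HFD libraries 35.3 to 47.8 with a median of 42.4. TG SD libraries had 30.3 to 42.5 CPM with a median of 33.5, and TG HFD libraries 29.8 to 35.2 with a median of 34.3. Every TG HFD library lay below every WT HFD library, by a margin of 35.2 against 35.3 CPM. Libraries did not overlap, in either direction, for 4.15% of all tested genes in that comparison (551 genes, 453 of them lower in TG HFD). On SD a single TG library was above the WT range. On the log2 scale TG/WT averaged over diets was −0.17 (SE 0.0617, unadjusted p = 0.0106, edgeR adjusted p = 0.199), that of TG SD/WT SD −0.16 (SE 0.0690, edgeR adjusted p = 0.476) and that of TG HFD/WT HFD −0.18 (SE 0.0903, edgeR adjusted p = 0.471). Thus 0 of 4 members were called, where the share over 13272 genes was 0.256% for TG/WT, 0.0904% on SD and 0.226% on HFD.

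The call for *Ache* depended on the surrogate variables. With 0 of them, TG HFD/WT HFD gave −0.33 (SE 0.0750, edgeR adjusted p = 0.00713) and *Ache* was called, as it was with 2 (−0.33, edgeR adjusted p = 0.00259). In the same fits the count over all genes rose from 30 to 515 and 634. Of single libraries, leaving out WT HFD replicate 8 moved the value with 4 surrogate variables most, to −0.33 (edgeR adjusted p = 0.0593). Averaged over diets, TG/WT of *Ache* passed the adjusted p with 0 surrogate variables (−0.27, edgeR adjusted p = 0.00458) and with 2 (−0.26, edgeR adjusted p = 0.00138) but stayed under the fold threshold. With 4 it was −0.27 (edgeR adjusted p = 0.00638) without WT HFD replicate 8, −0.22 (edgeR adjusted p = 0.018) without TG SD replicate 5 and −0.10 without TG SD replicate 6. For TG SD/WT SD it was −0.24 without TG SD replicate 5 and −0.08 without TG SD replicate 6.

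*Ache* is rich in GC (58.7% of the bases of its longest annotated transcript), and libraries differed in how their counts depended on GC content. For each library, a GC slope gives the log2 change of counts, relative to the average library, for each 10% of GC content. This slope had group means in hippocampus of 0.00593 ± 0.0683 in WT SD, 0.0958 ± 0.0737 in WT HFD, −0.0472 ± 0.0928 in TG SD and −0.0546 ± 0.0472 in TG HFD (n = 6 each). Over the 24 hippocampus libraries log2 CPM of *Ache* followed this slope with r = 0.699 and rho = 0.702 (permutation p = 0.00023 and 0.0003, adjusted over 20 relations 0.0012 and 0.003). Without the 2 libraries farthest in slope r was 0.729, and within groups it was 0.465 (permutation p = 0.0208). In a fit added after seeing the data, with a GC correction and 0 surrogate variables, TG HFD/WT HFD gave −0.13 (SE 0.0656, edgeR adjusted p = 0.409) and TG/WT averaged over diets −0.13 (SE 0.0465, edgeR adjusted p = 0.148).

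**Figure D4:**
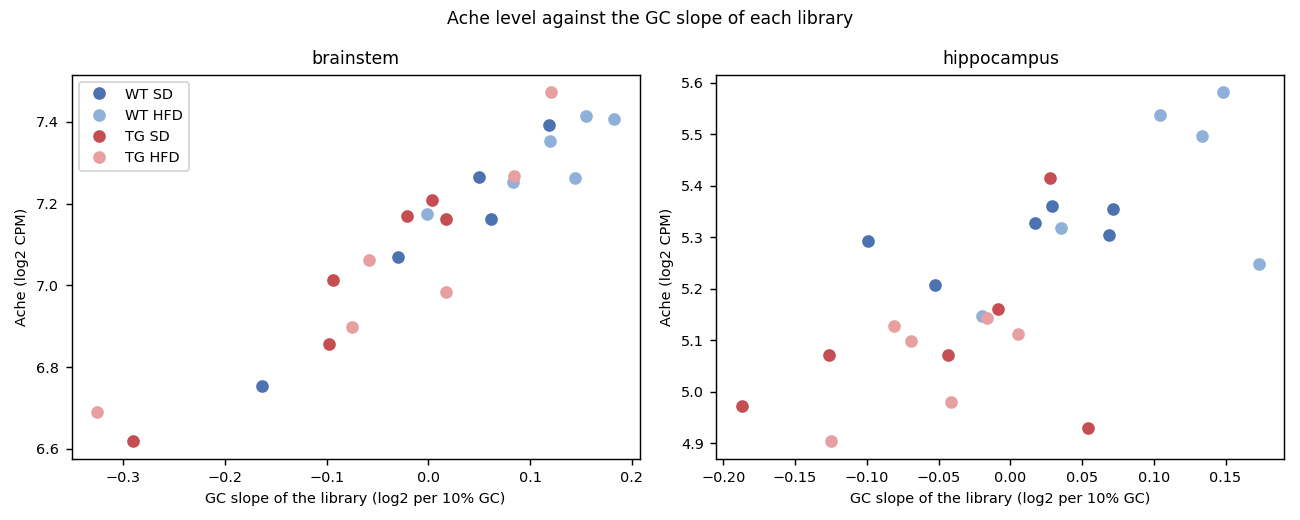
Log2 CPM of Ache against the GC slope of each library in brainstem (left, 23 libraries) and hippocampus (right, 24 libraries), coloured by group. In brainstem the points follow a line (r = 0.943) that all 4 groups share, and in hippocampus most TG libraries lie at lower slopes and lower Ache than WT libraries.

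The relation was closer still in brainstem. There r between *Ache* and the GC slope was 0.943 and rho 0.924 (permutation p = 1e-05 for both, the smallest that 100000 permutations can give, adjusted 0.0002), with 0.919 without the 2 farthest libraries and 0.925 within groups. *Slc18a3* (61.2% GC) had r = 0.791 (adjusted permutation p = 0.0004) and *Prph* (60.8% GC) r = 0.712 (adjusted permutation p = 0.0012). Without the 2 farthest libraries these were 0.705 and 0.566. *Chrm2* and *Slc5a7*, at 41.6% and 40.8% GC, had r below 0 (−0.496 and −0.341, adjusted permutation p = 0.0618 and 0.255). WT SD replicate 6, the low library for *Slc18a3*, had a slope of −0.163, against −0.0302 to 0.118 in the other WT SD libraries. The part of GC content in any difference between groups was not tested beyond the corrected fits.

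*Chrna4* in hippocampus was the member with the smallest p for diet. It had 11.2 to 15.3 CPM in WT SD (median 12.95), 12.1 to 16.7 in WT HFD (median 15.3), 11.7 to 16.1 in TG SD (median 14.0) and 14.2 to 17.7 in TG HFD (median 15.8). Means were higher on HFD in both genotypes, and the groups overlapped in both. HFD/SD averaged over genotypes was 0.19 on the log2 scale (SE 0.0621, unadjusted p = 0.00518, edgeR adjusted p = 0.41), with 0.20 in WT and 0.17 in TG. Of all genes 0.0% were called for this comparison. *Chrm2* in hippocampus, with group means of 6.78 ± 0.538, 7.22 ± 1.30, 6.30 ± 1.58 and 7.24 ± 0.809 CPM in WT SD, WT HFD, TG SD and TG HFD (n = 6 each), had 0.16 (SE 0.0824, edgeR adjusted p = 0.708) for HFD/SD. *Chrnb2* had 50.8 to 67.2 CPM over all 24 libraries and a TG/WT log2 fold change of −0.01 (95% interval −0.11 to 0.08).

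The 6 members that were not tested in hippocampus had at most 20 counts in any library. *Slc5a7* had medians of 0.496 CPM in WT SD, 0.688 in WT HFD, 0.667 in TG SD and 0.558 in TG HFD. *Prph* had means between 0.600 and 0.701 CPM and *Calca* between 0.746 and 0.995. The groups overlapped for each of these genes. *Chat*, *Slc18a3* and *Isl1* had at most 3 reads in any hippocampus library, and differences between groups were not detectable at this depth.

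**Figure D5:**
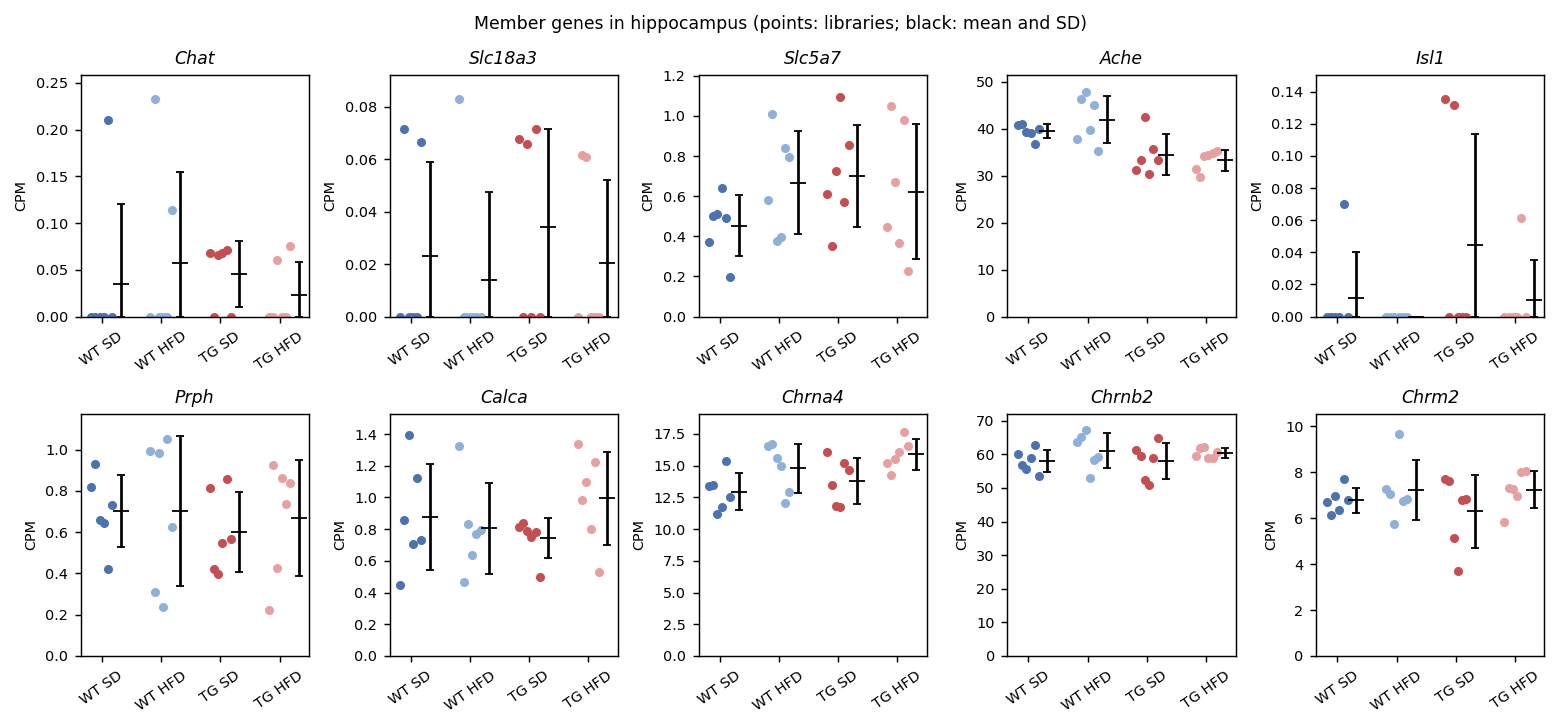
CPM of the 10 genes in the 24 hippocampus libraries by group, one panel each with the y axis from 0, and the mean and SD of each group in black (bars cut at 0). Ache is lower in TG HFD (29.8 to 35.2) than in WT HFD (35.3 to 47.8), and Chat, Slc18a3 and Isl1 stand at 0 in most libraries.

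Across the 23 brainstem libraries, log2 CPM of *Chat* was compared with each of the other 9 members. Pearson's r was 0.637 with *Chrna4*, 0.600 with *Slc5a7*, 0.592 with *Slc18a3*, 0.542 with *Chrnb2* and 0.490 with *Prph*, and these 5 had an adjusted permutation p of at most 0.05 over the 9 relations (0.00945, 0.00945, 0.00945, 0.0186 and 0.032; unadjusted permutation p = 0.00123, 0.00267, 0.00315, 0.00825 and 0.0178). Spearman's rho was lower, at 0.423, 0.556, 0.460, 0.422 and 0.237, and 0 of the 9 passed by rank (the lowest adjusted permutation p was 0.0631, for *Slc5a7*). Without the 2 libraries farthest from the median of *Chat*, TG SD replicate 1 and WT SD replicate 6, r fell to 0.453, 0.572, 0.252, 0.375 and 0.122, and 0 of 9 passed. The relations of *Chat* with *Slc18a3*, *Prph*, *Chrna4* and *Chrnb2* thus rest in part on those 2 libraries, while that with *Slc5a7* was of about the same size without them (adjusted permutation p = 0.0516). *Ache* (r = 0.433), *Chrm2* (0.395), *Isl1* (0.236) and *Calca* (−0.0597) did not pass (adjusted permutation p = 0.0592, 0.0805, 0.314 and 0.786). In hippocampus, where *Chat* was at 0 in most libraries, r lay between −0.324 and 0.320 and 0 of 9 passed.

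After removing group means, the genes with the highest r to *Chat* among 13339 in brainstem were *Dpp6* (0.912), *Nmt1* (0.860), *Rbsn* (0.850), *Slc7a1* (0.850), *Synj2* (0.844), *Trim9* (0.836), *Mia3* (0.831) and *Parm1* (0.831). *Slc5a7* ranked 28 (r = 0.795), *Chrna4* 523, *Chrnb2* 641, *Slc18a3* 830 and *Calca* 8210. These are descriptions over 23 libraries that share tissue and depth, and 235 genes had r above 0.7.

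Within the regions, 0 genes of the pathway, motor neuron and marker lists were called in any comparison of genotype or diet. For TG/WT averaged over diets in brainstem, the smallest p among genes of the synthesis list other than members was that of *Bche* (log2 fold change 0.13, edgeR adjusted p = 0.495), of the nicotinic subunits *Chrna3* (−0.14, edgeR adjusted p = 0.775), of the muscarinic receptors *Chrm3* (−0.01, edgeR adjusted p = 0.986), of the chaperones *Ly6h* (0.18, edgeR adjusted p = 0.238) and of the motor neuron genes *Chodl* (−0.14, edgeR adjusted p = 0.4). In hippocampus they were *Bche* (0.02, edgeR adjusted p = 0.97), *Chrna5* (0.16, edgeR adjusted p = 0.558), *Chrm3* (−0.08, edgeR adjusted p = 0.454), *Lynx1* (0.06, edgeR adjusted p = 0.422) and *Esrrg* (−0.08, edgeR adjusted p = 0.652). The summed level of the 16 motor neuron genes in brainstem was 351 ± 43.4 CPM in WT SD (n = 5), 338 ± 33.2 in WT HFD, 334 ± 27.1 in TG SD and 354 ± 25.6 in TG HFD (n = 6 each), with overlap of all groups.

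Markers of the region and of neighbouring tissue varied between libraries. The 8 hindbrain genes summed to 413 to 548 CPM in WT SD, 319 to 494 in WT HFD, 346 to 480.2 in TG SD and 438 to 521 in TG HFD, and *Slc6a5* among them was at −0.04 for TG/WT (edgeR adjusted p = 0.753). The 5 monoaminergic genes ranged from 49.1 to 162 CPM and the 4 genes of choroid plexus from 11.5 to 2962 CPM over the brainstem libraries, in every group with overlap. In hippocampus the 6 regional genes summed to 640.0 to 779 CPM, with *Fibcd1* at −0.17 for TG/WT (SE 0.0542, edgeR adjusted p = 0.116), and choroid plexus genes to 37.0 to 309 CPM. In brainstem *Dbh* (0.29, edgeR adjusted p = 0.634), *Kl* (−0.08, edgeR adjusted p = 0.892) and *Fibcd1* (0.17, edgeR adjusted p = 0.721) had the smallest p of the monoaminergic, choroid plexus and hippocampus lists, and in hippocampus *Kl* (−0.11, edgeR adjusted p = 0.549) and *Acta1* (0.14, edgeR adjusted p = 0.683) did of the choroid plexus and muscle lists. Between the regions, *Prox1* of the hippocampus list was at 1.60, the monoaminergic list ran from −10.6 for *Slc6a2* to −4.14 for *Th*, and the choroid plexus list from −3.61 for *Ttr* to 0.31 for *Kl*, with *Slc6a5* of the hindbrain list at −12.4. The monoaminergic genes and *Slc6a5* had means of 0.0833 to 17.9 counts in hippocampus. They entered through their brainstem counts alone and so had to be lower in hippocampus, and their values are descriptions. The part of any of these markers in the members' values was not tested.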

How the data were processed

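RNA was taken from brainstem and hippocampus and sequenced as poly(A) libraries with 75 base single-end reads. The authors aligned the reads with STAR 2.7.9a to the Ensembl mouse genome, and deposited raw counts per gene and library. The submitters' processing notes also name FastQC 0.11.9 and DESeq2 1.32.0. How reads were assigned to genes, and whether strand was used, is not given in the sources used here. Gene symbols, exon lengths and overlaps came from GENCODE vM21 (GRCm38), which is not the build of the alignment, and were matched by Ensembl identifier.

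The 10 genes and all lists were chosen with earlier results of these data known. Genes averaging 50 counts or more in a region entered the test, which used edgeR 4.0.16 (quasi-likelihood test, TMM) in R 4.3.3, with the 4 groups and 4 surrogate variables of svaseq (sva 3.50.0) in the model. Calls needed a p of 0.05 or less after Benjamini-Hochberg adjustment over all tested genes, and a log2 fold change of 0.3 or more in either direction. The regions were compared in a fit of all 47 libraries over 29858 genes listed in both tables, without surrogate variables. Log2 CPM used a prior count of 2, RPKM is CPM per kilobase of exon, and correlations had two-sided tests with 100000 permutations (scipy 1.17.1). In simulated counts, 99.5% of 2-fold changes between TG and WT in brainstem (13283 genes), 99.5% in hippocampus (13225 genes) and 100% between regions (13424 genes) were recovered. Smaller changes were not simulated, so this recovery does not extend to differences near the fold threshold. The counts were drawn independently for each gene and library, so the recovery does not cover variation shared between genes, such as the GC slopes. Named list genes were those called in any comparison, those with the smallest p for TG/WT and those at the ends of the regional fold changes. Alternatives were DESeq2 1.42.0, RLE normalization, library totals, 0 or 2 surrogate variables, other filters, no fold threshold, a replicate block and each library left out. DESeq2 and a GC correction without surrogate variables were added after seeing the data. No library was left out. The transgene and some marker genes are not reported here. Within a region each library is a mouse per the study's methods, while libraries of both regions may come from the same mice. Exact intervals of read ratios cover counting error only.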

Additional observations from a re-analysis of the deposited data

Results flagged for a closer look

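Among 60 groups of 5 or 6 libraries of members with a mean count of at least 10, 2 held a library far from the rest of its group by Dixon's test on log2 CPM, where chance flags about 5% of groups. *Slc18a3* in brainstem WT SD replicate 6 was at 7.60 CPM, with the other WT SD libraries between 14.5 and 16.1, and the gap took up 0.854 of the group's range. The same library was the lowest of its group for *Chat*, *Slc5a7*, *Ache*, *Isl1*, *Prph*, *Chrna4* and *Chrnb2*, and its GC slope of −0.163 was the lowest of WT SD. *Calca* in hippocampus TG SD replicate 8 was at 0.498 CPM, from 7 counts, with the others between 0.751 and 0.840, a gap of 0.779 of the range.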

How the results depend on the processing

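The count of members called was 0 in all 14 comparisons within the regions under every alternative run, with 1 exception. For TG HFD/WT HFD in hippocampus it was 1 (*Ache*) with 0 surrogate variables, with 2, and with DESeq2 without surrogate variables, where the log2 fold change was −0.33, −0.33 and −0.33 (the last a fit chosen after seeing the data). Leaving out each library in turn gave 0 throughout within the regions. Between the regions 8 of 9 members were called under DESeq2, RLE normalization, library totals and the replicate block. Of these 8, 5 were tested through their brainstem counts alone. With filterByExpr it was 9 of 10, the added gene being *Isl1*, which likewise entered through its brainstem counts. When single libraries were left out, 8 to 9 were called. There *Chrnb2* in WT SD (0.17 to 0.30) passed the fold threshold without brainstem WT SD replicate 1 or 7. The log2 fold change of *Chat* for TG HFD/WT HFD in brainstem turned to 0.021 with the GC correction, and that of *Slc5a7* for HFD/SD in TG turned to 0.026 with 0 surrogate variables, 0.026 with DESeq2 without them, 0.055 with the GC correction and 0.00083 with the replicate block. The relations of *Chat* with other members in brainstem numbered 5, and 0 without the 2 libraries farthest in *Chat*, where *Slc5a7* kept r = 0.572 and *Chrm2* had 0.543 (adjusted permutation p = 0.0516 for both). With group means removed 5 passed, *Chrm2* in (0.0219) and *Prph* out (0.0785), with library totals 6, *Ache* in (0.0348), and with a prior count of 0.5, 5. Replicate numbers in the labels do not say what they pair. Libraries of the same number deviated together only weakly (mean r of 0.0431 over 26 pairs in brainstem and 0.108 over 36 in hippocampus, with 10 and 15 above 0.1), so the block is an alternative, and it called 0 members within the regions. The cause of these changes was not tested. At these depths the median SE over all genes within a region lay between 0.0447 and 0.107 on the log2 scale.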
